A study of Rattus norvegicus with 20 samples.

Results

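The aminoacyl-tRNA synthetases are described here, the enzymes that join each amino acid to its tRNA. The members were taken from a list of 36 gene symbols, 20 for the cytosol and 16 for the mitochondrion, matched by the symbol as listed or with a trailing 1 and then by Ensembl identifier across the tables. The symbols matched 37 Ensembl genes of the 32402 in the tables, since Mars2, the mitochondrial methionyl enzyme, had 2 Ensembl identifiers, both listed at 0 in every library. The other 35 members had a mean of at least 10 normalized counts in every table and were tested. These were 20 cytosolic genes, of which Gars and Kars also supply the mitochondrial form of their enzyme, and 15 mitochondrial genes.

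A synthetase activates 1 amino acid and loads it on the matching tRNA, which the ribosome then uses. Cytosolic translation and translation of the few proteins encoded by mitochondrial DNA run on separate sets of these enzymes, and the mitochondrial set is also encoded in the nucleus, made in the cytosol and imported. Several cytosolic synthetases sit together in a multisynthetase complex on scaffold proteins, while the rest act outside it. Many cytosolic synthetase genes are known targets of ATF4, the transcription factor of the amino acid and integrated stress response. The supraoptic nucleus (SON) of the hypothalamus holds the magnocellular neurons that make the peptide hormones vasopressin and oxytocin, and dehydration raises the demand for hormone synthesis in them.

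Poly(A) RNA of SON punches was sequenced from male Wistar Han rats, 5 in each of 4 groups. Adult rats were 3 months old and aged rats 18 months old. Euhydrated (EH) rats drank freely, and dehydrated (DH) rats had no water for 2 days according to the sample labels, while the study's methods give a longer time. The labels name no transgene or deletion in any group. A punch holds the whole nucleus and some neighbouring tissue, so in these bulk samples more cells of a type and more RNA per cell cannot be told apart. The values are read counts per gene divided by a size factor, called normalized counts here, in 1 table for each of 3 comparisons, and they summed to between 25931931 and 28689164 per library. Levels from different tables are scaled apart and were not compared with each other. RNA integrity numbers lay between 8.4 and 8.8. Of the 4 magnocellular markers (Avp, Oxt, Pdyn and Caprin2), none was at 0, and their summed normalized counts lay between 205788 and 533624 per library.

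The first question was how DH changes the synthetase genes of the adult SON. In adult DH rats, 15 of the 20 cytosolic genes were higher than in adult EH rats and none was lower, against 7.67% of all 15280 genes tested that were called higher and 12.7% called in either direction (limma, two-sided, with the adjusted p, Padj, under 0.05 over all genes). For the same 15 genes the lowest DH rat was above the highest EH rat, which held for 6.81% of all genes. The LFC was above 0 for 18 cytosolic and 4 mitochondrial genes, against 47.8% of all genes. The median log2 fold change (LFC) of the 20 cytosolic genes was 0.20, a fold of 1.15, beside -0.0073 over all genes. The 15 mitochondrial genes had a median LFC of -0.091, with 1 called lower and none higher, against 4.99% of all genes called lower.

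**Figure D1:**
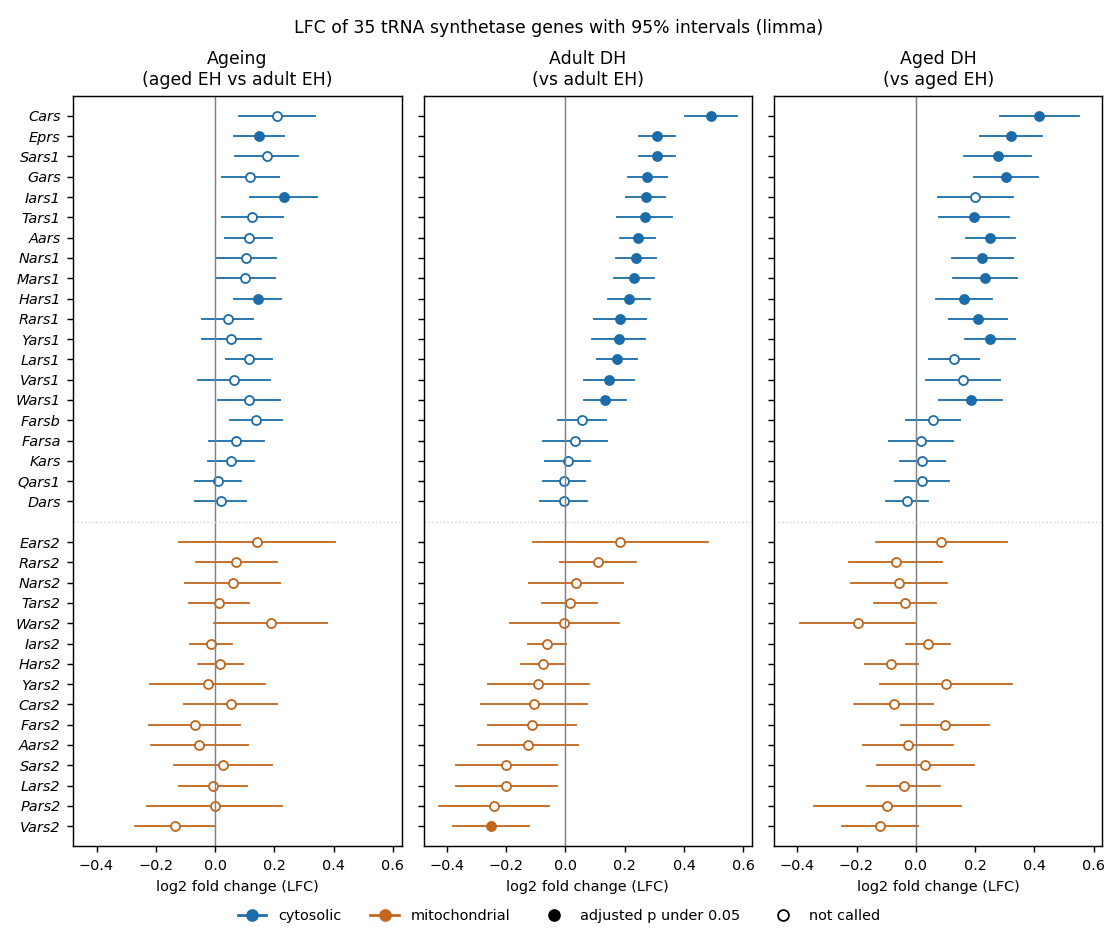
Points are the LFC of each of the 35 synthetase genes in ageing (left), adult DH (middle) and aged DH (right), and lines are 95% intervals from limma with 5 rats per group. Filled points passed Padj under 0.05, and the cytosolic genes (blue, 15 filled in adult DH, 12 in aged DH and 3 in ageing) lie to the right of 0, apart from the 5 genes Farsb, Farsa, Kars, Qars1 and Dars near 0 in both DH panels. Mitochondrial genes (orange, 1 filled, in adult DH) lie on both sides of 0.

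The largest change was that of Cars, the cysteinyl enzyme. Its normalized counts were 1619.6, 1645, 1553, 1571 and 1454 in the 5 adult EH rats and 2206, 2125, 2346, 2119 and 2228 in the 5 adult DH rats. The groups lay well apart, and the LFC was 0.49 ± 0.041 (SE, Padj = 4.79e-06), a rise of 40.6%. Eprs, whose single protein charges both glutamate and proline, had normalized counts of 4363, 4377, 4387, 4308 and 4660.0 in adult EH rats and 5409, 5573, 5366, 5488 and 5551 in adult DH rats. The EH rat nearest to the DH rats was replicate 6, still below all of them, with an LFC of 0.31 ± 0.028 (Padj = 1.02e-05). For Sars1, the seryl enzyme, adult EH rats had 5419.7, 5533, 5344, 5237 and 5178 and adult DH rats 6422, 6525, 6747, 6527 and 6868 normalized counts. Every DH rat was above every EH rat and the LFC was 0.31 ± 0.029 (Padj = 1.32e-05).

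Gars, the glycyl enzyme of both compartments, had normalized counts of 3245, 3264, 3264, 3074 and 3098 in adult EH rats and 3918, 3994, 3799, 3720.0 and 3874 in adult DH rats, again with no overlap (LFC = 0.28 ± 0.031, Padj = 6.19e-05). Aars, the alanyl enzyme, had 9131, 8505, 8602, 9005 and 8777 in adult EH rats and 10268, 10211, 10440.5, 10595 and 10612 in adult DH rats. The gap between the groups was wider than the range within either one, with an LFC of 0.24 ± 0.027 (Padj = 6.61e-05). For Tars1, the threonyl enzyme, the EH values were 1409, 1289, 1326, 1234 and 1371 and the DH values 1563, 1679.5, 1599, 1511 and 1622, so that the lowest DH rat stood above the highest EH rat (LFC = 0.27 ± 0.043, Padj = 0.00113). Nars1, the asparaginyl enzyme, had 6328, 6158, 5767, 6229 and 6021 normalized counts in EH rats and 7221, 6926, 7525, 7092 and 7215 in DH rats. These groups did not overlap either, and the LFC was 0.24 ± 0.032 (Padj = 0.000289).

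Hars1, the histidyl enzyme, had normalized counts of 3061, 3178, 3135, 3249.9 and 3185 in adult EH rats and 3809, 3549.7, 3840.1, 3486 and 3679 in adult DH rats. All 5 DH rats exceeded the EH rats (LFC = 0.22 ± 0.033, Padj = 0.000849). The tyrosyl enzyme Yars1 and the tryptophanyl enzyme Wars1 changed less. The Yars1 values were 2713, 2864, 2724, 2519.7 and 2525 in EH rats and 2946, 3206, 3099.6, 2871 and 2983 in DH rats, with the lowest DH rat just above the highest EH rat (LFC = 0.18 ± 0.042, Padj = 0.0136). The Wars1 values were 2849, 2672, 2643, 2552 and 2645 in EH rats and 2879.9, 2971, 2871, 3022 and 2913 in DH rats, with a gap almost as narrow (LFC = 0.13 ± 0.033, Padj = 0.0174). Vars1, the valyl enzyme, was also called higher (LFC = 0.15 ± 0.039, Padj = 0.0251), but its call was lost without adult EH replicate 1 (Padj = 0.055), without adult DH replicate 3 (Padj = 0.0634) or without adult DH replicate 5 (Padj = 0.0548).

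The multisynthetase complex was divided. Of its 8 enzymes on the list, 5 were called higher in adult DH, namely Eprs, Iars1, Mars1, Rars1 and Lars1, and the 3 others, Kars, Qars1 and Dars, were not. Iars1, the isoleucyl enzyme, had normalized counts of 1893, 1885, 1891, 1857 and 1916 in adult EH rats and 2209.5, 2336, 2193, 2302 and 2353 in adult DH rats. The EH rats were tightly grouped and all lay below the DH rats (LFC = 0.27 ± 0.031, Padj = 7.02e-05). Mars1, the methionyl enzyme, had 2694, 2529, 2538, 2626 and 2518 in EH rats and 3027, 3099, 3019, 2895 and 3112 in DH rats, without overlap (LFC = 0.23 ± 0.031, Padj = 0.00033). Rars1, the arginyl enzyme, had 1235, 1131, 1191, 1185 and 1207 in EH rats and 1346, 1314, 1349, 1289.8 and 1465 in DH rats, and DH replicate 5 was the highest of all (LFC = 0.18 ± 0.041, Padj = 0.0101). Lars1, the leucyl enzyme, had an LFC of 0.17 ± 0.031 (Padj = 0.00239). For the lysyl enzyme Kars, the LFC was 0.0082 with a 95% interval of -0.068 to 0.084, for the glutaminyl enzyme Qars1 it was -0.0057 (-0.077 to 0.066), and for the aspartyl enzyme Dars -0.0063 (-0.086 to 0.073). Outside the complex 10 of 12 genes were called higher, and the 2 that were not were Farsa and Farsb, which encode the subunits of the phenylalanyl enzyme (LFC = 0.032 and 0.056). Over these 5 genes that were not called, the intervals ran from -0.086 to 0.14.

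With RNA integrity as a covariate 12 of the 15 cytosolic genes were called, without Rars1 (Padj = 0.119), Wars1 (Padj = 0.0861) and Vars1 (Padj = 0.141). Over all 15280 genes tested, 1005 were called with the covariate, beside 1934 without it. RNA integrity was 8.6 in every adult EH rat and 8.4 to 8.6 in adult DH rats. The covariate therefore varied within the DH group only, and a part of RNA integrity in the lost calls was not tested.

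By structural class, 8 of 9 cytosolic genes of class I and 6 of 10 of class II were called higher in adult DH, beside Eprs, which joins an enzyme of each class. The 3 scaffold proteins of the complex, Aimp1, Aimp2 and Eef1e1, included 1 called gene, beside 7.67% of all genes called higher. Eef1e1 had normalized counts of 1119, 1064, 1073, 1070.5 and 1101 in adult EH rats and 1227, 1308, 1388, 1256 and 1385 in adult DH rats, higher in every DH rat (LFC = 0.27 ± 0.042, Padj = 0.000834), and in aged DH its LFC was 0.24 ± 0.049 (Padj = 0.00869).

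Promoters are shown for members that moved together, because ATF4 with its C/EBP partners is known to bind a composite element at synthetase genes. RefSeq promoters of the assembly GRCr8, 250 bases before to 50 after the annotated start, were found for 32 of the 35 tested members, all but Dars, Gars and Rars1. The letters TGATGNAAN, searched on both strands, were in 7 of these 32 members, beside 3.97% of all 33469 promoter windows of the same length. These windows belong to 27457 genes, and a member was counted if any of its windows matched. The counts of members and the shares of windows are therefore not in the same unit, for each motif searched. All 7 were among the 13 genes with a promoter that were called higher in adult DH, and none was among the 15 mitochondrial genes. They are Aars, Cars, Iars1, Mars1, Tars1, Yars1 and Nars1, and the windows of the first 6 follow, written in the direction of transcription with the match in capitals.
Cars (chr1:208225335-208225363, minus strand): cggcgccgcgGTTGCATCAgattctggaa
Tars1 (chr2:62114802-62114850, minus strand): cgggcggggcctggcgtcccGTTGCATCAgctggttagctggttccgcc
Mars1 (chr7:65023743-65023791, minus strand): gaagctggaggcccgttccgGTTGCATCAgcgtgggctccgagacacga
Iars1 (chr17:15193649-15193697, minus strand): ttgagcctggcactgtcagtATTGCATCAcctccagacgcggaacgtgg
Yars1 (chr5:146820191-146820212, plus strand): cgagctcagcTGATGCAACctg
Aars (chr19:55908349-55908397, plus strand): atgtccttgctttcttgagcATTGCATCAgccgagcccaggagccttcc
Aars (chr19:55908480-55908508, plus strand): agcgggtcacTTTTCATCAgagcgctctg
Counted from the annotated start, the match began at base 16 in Cars, -28 in Tars1, -18 in Mars1, -25 in Iars1 and 38 in Yars1, and at -113 and 8 in Aars. In Cars, Tars1, Mars1, Iars1 and Aars the capitals are the reverse complement of the letters searched, which there read on the strand opposite to transcription. Of the other letters searched, CACGTG was in 6 members (6.42% of all windows) and the NRF1 motif in 6 (4.25%), of which 1 and 3 were mitochondrial, and TGACGTCA was in none (1.83%). A match describes letters in a window and shows no binding, and some cytosolic genes that rose, such as Eprs and Sars1, had none of the first motif in theirs.

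The same comparison in aged rats asked how the old SON responds. Aged DH rats had 12 of the 20 cytosolic genes called higher than aged EH rats and none lower, against 4.05% of all 15346 genes tested that were called higher, 3.25% called lower and 7.29% called in either direction. For 9 of them the groups did not overlap, against 4.12% of all genes with DH above EH and 2.93% with DH below. The LFC was above 0 for 19 cytosolic and 5 mitochondrial genes, against 49% of all genes. The median LFC of the cytosolic genes was 0.20 again, beside -0.003 over all genes, and that of the 15 mitochondrial genes was -0.041, with none called (1 at an unadjusted p under 0.05, against 21.4% of all genes). All 12 cytosolic genes called in aged DH were among the 15 called in adult DH, and the adult and aged DH comparisons share no rats. The 3 others, Iars1, Lars1 and Vars1, were not called, with LFCs of 0.20, 0.13 and 0.16 (Padj = 0.0535, 0.063 and 0.125). Iars1 had normalized counts of 2202, 2226, 2710.2, 2279 and 2156 in aged EH rats and 2469, 2625, 2776, 2804 and 2597 in aged DH rats, so that a single EH rat, the third value, lay among the DH rats and the other EH rats lay below them.

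One aged EH library, replicate 4, stood apart. Its mean log2 value over the 20 cytosolic genes was 0.12 above the mean of the aged EH group, while the other 4 aged EH rats lay between -0.065 and -0.015 and the aged DH rats between 0.11 and 0.24. Without it 15 cytosolic genes were called in aged DH, and these were the same 15 as in adult DH, with Iars1 (Padj = 0.00307), Lars1 (Padj = 0.032) and Vars1 (Padj = 0.044) added. Replicate 4 was singled out by its high values in these same genes. Leaving out a high EH rat raises the LFC of such genes in DH, so the added calls are no separate support. Over all refits that left out 1 rat, the count ranged from 9 to 15.

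**Figure D2:**
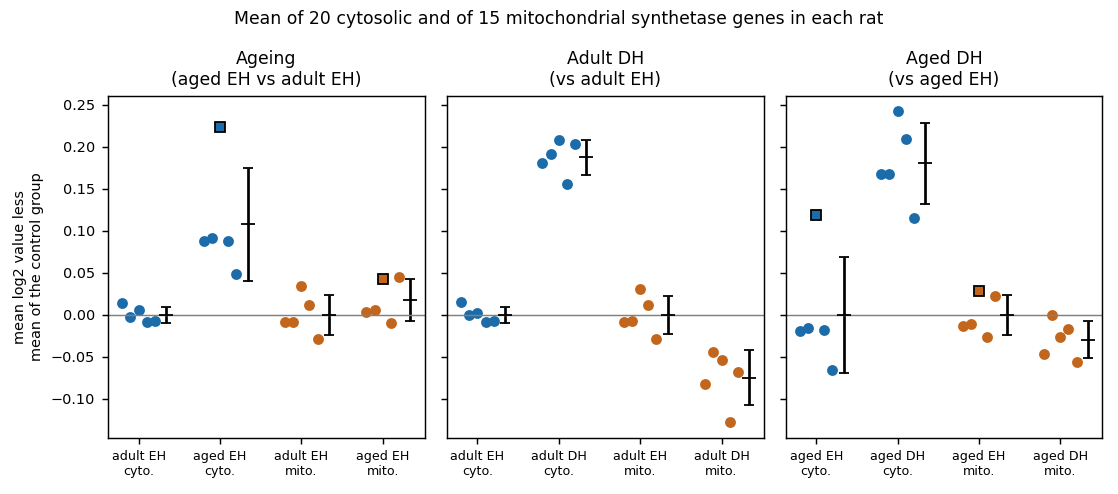
Each point is 1 rat, and its height is the mean log2 value over 20 cytosolic (blue) or 15 mitochondrial (orange) synthetase genes, less the mean of the control group in that table. Black marks are the group mean and SD of 5 rats, and squares mark aged EH replicate 4, which lies at 0.22 in the ageing table and 0.12 in the aged DH table, next to the lowest aged DH rat at 0.11.

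Cars again changed most. Aged EH rats had normalized counts of 1798, 1861, 2224, 1858 and 1725, the third value being replicate 4, and aged DH rats had 2423, 2521, 2747, 2546 and 2362. Replicate 4 was the highest EH rat and still below every DH rat, with an LFC of 0.42 ± 0.062 (Padj = 0.00164). For Eprs the values were 4928, 5004, 5627, 5041 and 4907 in aged EH rats and 6579.8, 6094, 6856, 6486 and 5838 in aged DH rats, with the same order of groups (LFC = 0.32 ± 0.049, Padj = 0.00177). Gars had 3382, 3542, 4066, 3524 and 3526 in aged EH rats and 4459, 4408, 4733, 4539 and 4118 in aged DH rats, and replicate 4 of the EH group came close to the lowest DH rat (LFC = 0.30 ± 0.05, Padj = 0.00242). Aars had 9632, 9777, 10797, 9802 and 9558 in aged EH rats and 11747, 11734, 12381, 11713 and 11403 in aged DH rats. Here too the groups were separate, and the LFC was 0.25 ± 0.038 (Padj = 0.00175).

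Sars1 had normalized counts of 6062, 6124, 7273, 6119 and 5849 in aged EH rats and 7435, 7602, 8018, 7720.3 and 7182 in aged DH rats. Replicate 4 of the EH group lay above DH replicate 6, the only overlap, and the LFC was 0.28 ± 0.053 (Padj = 0.00596). Yars1, with 2844, 2769.6, 3170.4, 2804 and 2833 in aged EH rats and 3365, 3388, 3548, 3461 and 3376 in aged DH rats, did not overlap (LFC = 0.25 ± 0.04, Padj = 0.00203). Nars1, with 6292, 6808, 7659, 6929 and 6496 in aged EH rats and 7912, 7663, 8339, 8155 and 7798 in aged DH rats, was separated by only the few counts between EH replicate 4 and DH replicate 2 (LFC = 0.22 ± 0.048, Padj = 0.0108). Mars1, with 2767, 2944, 3241, 2773 and 2713 and 3245, 3347, 3576, 3548 and 3242 in the same groups, was separated as narrowly, by EH replicate 4 and DH replicate 6 (LFC = 0.23 ± 0.05, Padj = 0.0116). Rars1 had 1273, 1258, 1346, 1294 and 1206 in aged EH rats and 1487, 1423, 1432, 1615 and 1429 in aged DH rats, and every DH rat was higher (LFC = 0.21 ± 0.046, Padj = 0.012).

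The 3 calls with the highest adjusted p in aged DH were those of Wars1, Hars1 and Tars1. Wars1 had 2984, 2851, 3421, 2937 and 2869 in aged EH rats and 3320.0, 3359.9, 3632, 3511 and 3269 in aged DH rats, and EH replicate 4 lay among the DH rats (LFC = 0.18 ± 0.05, Padj = 0.0385). Hars1 had 3517, 3760.1, 3857, 3666 and 3389 in aged EH rats and 3971, 3863, 4415, 4097 and 4003 in aged DH rats, separated by the few counts between EH replicate 4 and DH replicate 2 (LFC = 0.16 ± 0.044, Padj = 0.0396). Tars1 had 1524, 1487, 1647, 1424 and 1444 in aged EH rats and 1724, 1627, 1849.5, 1854 and 1572 in aged DH rats, with 2 DH rats below EH replicate 4 (LFC = 0.20 ± 0.055, Padj = 0.0454). All 3 calls were lost with median-centred libraries or without the filter on low values, where 9 cytosolic genes were called, and those of Hars1 and Tars1 also with RNA integrity as a covariate (Padj = 0.0504 and 0.0586), where 10 were called. Over all genes tested, 1022, 956 and 1135 were called in these settings in turn, beside 1119 in the main fit. Each of the calls of Wars1, Hars1 and Tars1 was lost in most refits with 1 rat less. Wars1 kept its call only without aged EH replicate 4 or aged DH replicate 6, and otherwise reached a Padj of up to 0.096. Hars1 kept its call only without aged EH replicates 2 or 4 or aged DH replicate 2 (Padj up to 0.0943 otherwise), and Tars1 only without aged EH replicate 4 or aged DH replicates 2 or 6 (Padj up to 0.12 otherwise). In the other direction, Iars1 passed also without aged DH replicate 1 (Padj = 0.0481) and Lars1 without aged DH replicate 6 (Padj = 0.0342).

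**Figure D3:**
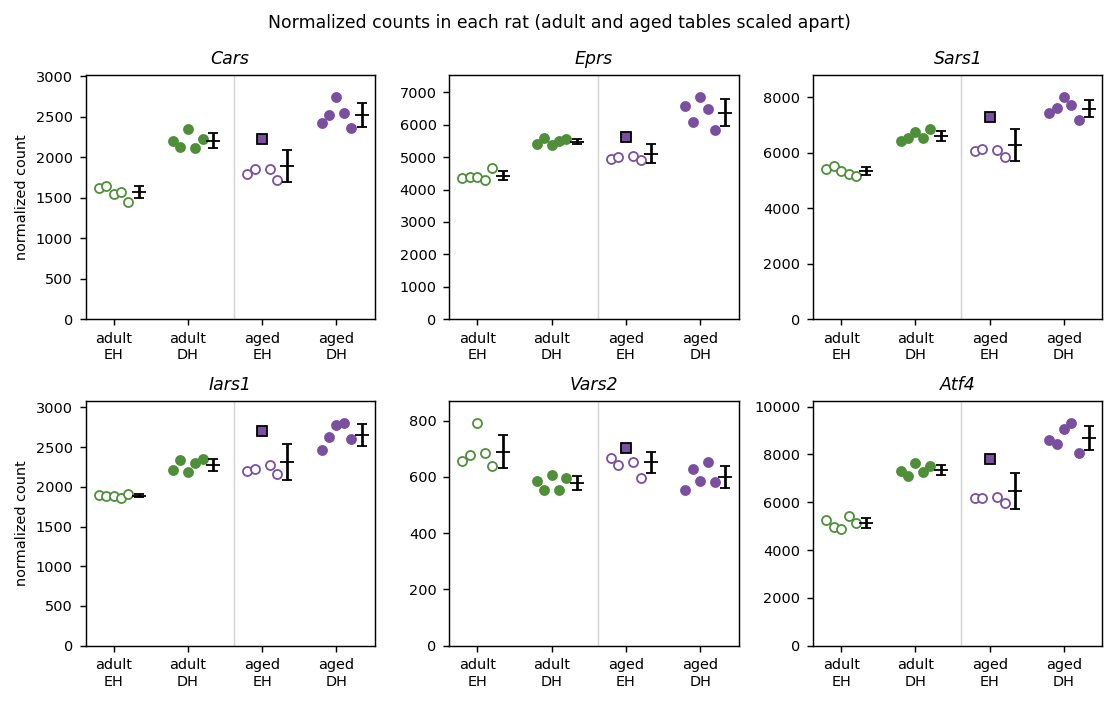
Each point is the normalized count of 1 rat (y axes from 0), in the adult DH table (green) and the aged DH table (purple), which are scaled apart, for 4 cytosolic synthetase genes, the mitochondrial Vars2 and the transcription factor gene Atf4. Open points are EH rats, filled points are DH rats, black marks are the mean and SD of 5 rats, and the square is aged EH replicate 4, which is the highest aged EH rat in all 6 plots. Vars2 is lower in every adult DH rat than in every adult EH rat.

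Of the 5 cytosolic genes that were not called in adult DH, none was called in aged DH. Their LFCs in aged DH ran from -0.03 (Dars) to 0.058 (Farsb), with intervals from -0.10 to 0.15. In the multisynthetase complex 3 of 8 genes were called, Eprs, Mars1 and Rars1, and outside it 9 of 12. Over the 20 cytosolic genes the LFCs in adult and aged DH had a Pearson correlation of 0.95, and over the 15 mitochondrial genes of 0.15, each given as a description across genes, which share libraries and are not independent.

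Whether adult and aged rats responded unequally to DH was tested directly over all 20 rats. Limma called 0 of the 20 cytosolic and 0 of the 15 mitochondrial genes, as it called 0% of all 15326 genes tested. At an unadjusted p under 0.05 there were 0 cytosolic genes and 3 mitochondrial genes (Iars2, Fars2 and Sars2, each higher in aged than in adult DH relative to EH, by 0.10, 0.21 and 0.23 on the log2 scale), against 9.93% of all genes. The difference was above 0 for 11 cytosolic and 9 mitochondrial genes, against 49.5% of all genes. For the cytosolic genes the differences lay between -0.075 (Cars) and 0.071 (Yars1), and their 95% intervals between -0.24 and 0.19, so a smaller or larger response in aged rats within those bounds was not detectable with 5 rats per group. For the mitochondrial genes the intervals were wider, from -0.44 to 0.46.

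**Figure D4:**
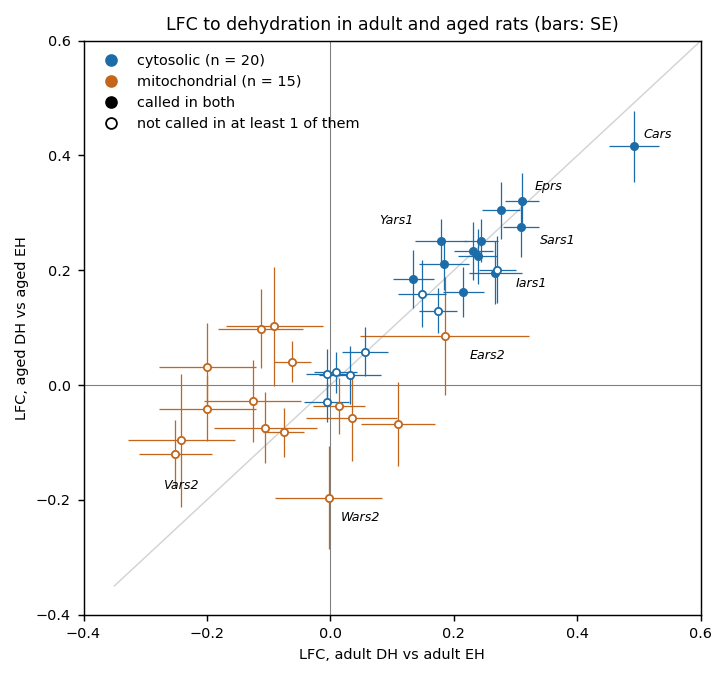
The LFC of each synthetase gene in adult DH (x axis) is plotted against its LFC in aged DH (y axis), with SE as bars and the line of equal change in grey. The 12 cytosolic genes called in both (filled blue) lie near that line up to Cars at the top right. The 15 mitochondrial genes (orange) lie mostly below 0, with 4 above 0 in adult DH and 5 in aged DH.

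Ageing was compared in EH rats. Aged EH rats had 3 of 20 cytosolic genes called higher than adult EH rats, against 2.69% of all 15369 genes tested, and 0 of 15 mitochondrial genes called, against 5.99% in either direction and 3.3% lower. All 20 cytosolic LFCs were above 0 with all rats (Qars1 and Dars each lay below 0 in 1 setting that left out a rat), which held for 50.1% of all genes and for 8 of 15 mitochondrial genes, with a median of 0.11 beside 0.00033 over all genes and 0.013 over the mitochondrial genes. For 7 cytosolic genes every aged rat was above every adult rat, against 2.95% of all genes (3.43% in the other direction), namely Aars, Cars, Eprs, Farsb, Hars1, Iars1 and Sars1. At an unadjusted p under 0.05 there were 13 cytosolic genes and 1 mitochondrial gene, against 20.3% of all genes. The ageing comparison shares its adult EH rats with adult DH and its aged EH rats with aged DH, so its values are not independent of those above.

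Iars1 had the largest LFC of the 3 called genes. Its normalized counts in the ageing table were 1973, 1962, 1975, 1936 and 1997 in adult EH rats and 2206, 2229, 2711, 2281 and 2170.2 in aged EH rats, with replicate 4 as the third and highest aged value (LFC = 0.23 ± 0.053, Padj = 0.0205). Hars1 had 3190.1, 3307, 3273, 3388 and 3321 in adult EH rats and 3522, 3766, 3858, 3669.7 and 3410.2 in aged EH rats and the groups only just did not overlap (LFC = 0.14 ± 0.037, Padj = 0.0366). Eprs had 4547, 4555, 4581, 4491 and 4858 in adult EH rats and 4936, 5012, 5629, 5046 and 4938 in aged EH rats. Adult replicate 6 and aged replicate 4 were the highest of their groups, and the LFC was 0.15 ± 0.04 (Padj = 0.0423).

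The ageing calls depended on single rats. With 1 rat left out the count was 0 without adult EH replicate 5, 1 without adult EH replicates 1, 2 or 4 or aged EH replicates 2 or 5, 2 without adult EH replicate 6 or aged EH replicate 4, 3 without aged EH replicate 1 and 5 without aged EH replicate 6. Iars1 lost its call only without adult EH replicate 5 (Padj = 0.0505). Eprs kept its call only without aged EH replicates 1 or 6 or adult EH replicate 6 (Padj up to 0.0981 otherwise), and Hars1 only without aged EH replicates 1 or 6 (Padj up to 0.089 otherwise). Sars1 passed without aged EH replicate 4 (Padj = 0.0453) or 6 (Padj = 0.038), and Cars without aged EH replicate 6 (Padj = 0.0346). Without aged EH replicate 4 the median LFC of the cytosolic genes was 0.073.

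In the mitochondrial set 1 gene was called in any comparison. Vars2, the mitochondrial valyl enzyme, had normalized counts of 656, 676, 791, 686 and 639.8 in adult EH rats and 585, 552, 605, 553 and 595 in adult DH rats, lower in every DH rat, as were 4.08% of all genes (LFC = -0.25 ± 0.059, Padj = 0.0134). Its values were 667, 643, 701, 651 and 596 in aged EH rats and 553, 628, 584, 652 and 581 in aged DH rats, where the groups overlapped (LFC = -0.12 ± 0.06, Padj = 0.263). At an unadjusted p under 0.05 there were 5 mitochondrial genes in adult DH, against 26.9% of all genes, and all 5 had LFCs below 0, namely Vars2, Pars2 (-0.24), Lars2 (-0.20), Sars2 (-0.20) and Hars2 (-0.076). Pars2, the mitochondrial prolyl enzyme (Padj = 0.0863), was called only without adult EH replicate 6 (Padj = 0.0442) or without the variance trend of limma. Of the other mitochondrial genes, Ears2 (glutamyl), Rars2 (arginyl), Nars2 (asparaginyl) and Tars2 (threonyl) had LFCs above 0 in adult DH, with 0.19 for Ears2 as the highest. The median residual SD of a mitochondrial gene on the log2 scale was 0.11 in adult DH and that of a cytosolic gene 0.048, beside 0.11 over all genes, so small changes were less detectable in the mitochondrial set. As a mean over the 15 genes on the log2 scale, less the EH mean, adult DH rats lay between -0.13 and -0.045 and adult EH rats between -0.029 and 0.031, which did not overlap. The same mean lay between -0.056 and -0.00022 in aged DH rats and between -0.026 and 0.028 in aged EH rats, which overlapped.

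The compartments were set against each other within each rat, as the log2 ratio of a cytosolic gene to the mitochondrial gene of the same amino acid, in which the size factor cancels but for the pseudocount. There were 16 such pairs for 15 amino acids, in which Eprs was paired with both Ears2 and Pars2, and Farsa and Farsb each with Fars2, so some pairs share a gene. Exact permutation tests of 5 against 5 rats, two-sided, cannot give a p under 0.00794, and p was adjusted over the 48 tests of 16 pairs in 3 comparisons. The ratio was called higher for 9 pairs in adult DH, 11 in aged DH and 3 in ageing, and lower for none.

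In adult DH the difference between groups was above 0 for all 16 pairs. The pair of cysteinyl enzymes moved most, from a log2 ratio of 2.17 ± 0.11 (SD, n = 5) to 2.77 ± 0.11 (SD, n = 5), a difference of 0.60 (exact permutation p = 0.00794, adjusted p = 0.0212). The others called, all with that same smallest p, were Eprs/Pars2 (0.55), Sars1/Sars2 (0.51), Vars1/Vars2 (0.40), Lars1/Lars2 (0.37), Aars/Aars2 (0.37), Iars1/Iars2 (0.33), Hars1/Hars2 (0.29) and Tars1/Tars2 (0.25). For Rars1/Rars2, where both genes had an LFC above 0, the difference was 0.074 (exact permutation, adjusted p = 0.303).

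In aged DH 14 of 16 differences were above 0 and the exceptions were the pairs of Fars2 with Farsa (-0.081) and Farsb (-0.041). Cars/Cars2 had the largest difference again, at 0.49 (exact permutation, adjusted p = 0.0212), followed by Eprs/Pars2 at 0.42 and Wars1/Wars2 at 0.38. Among the called pairs the groups overlapped for Eprs/Pars2, Aars/Aars2, Tars1/Tars2, Nars1/Nars2 and Rars1/Rars2. Nars1/Nars2 and Rars1/Rars2 only just passed (exact permutation, adjusted p = 0.0497 for each). The count fell from 11 to 7 pairs without aged EH replicate 1, aged EH replicate 6 or aged DH replicates 3, 5 or 6, and was 12 without aged EH replicate 4. In ageing the pairs called were Iars1/Iars2 (0.25), Vars1/Vars2 (0.20) and Hars1/Hars2 (0.13), and the count was 3 also without aged EH replicate 4. With the difference of medians in place of means, no pair passed the adjusted threshold in any comparison. Many arrangements of the rats share a median, so the smallest p of that test is far higher than for means. After adjustment over 48 tests it could hardly pass, so this setting tells nothing about the pairs.

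**Figure D5:**
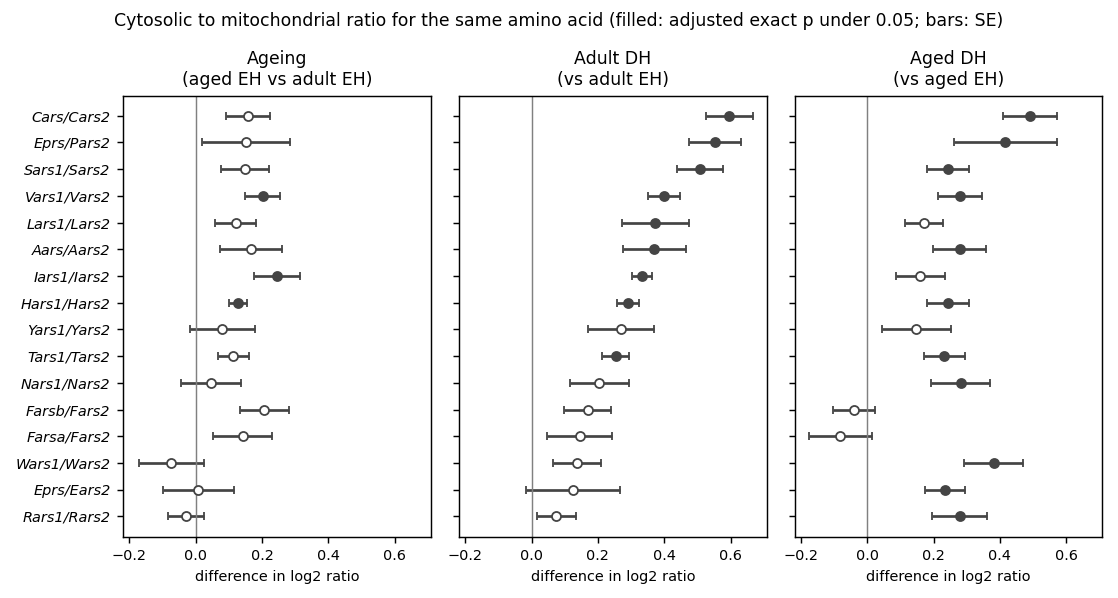
Points are the difference between groups (x axis) in the log2 ratio of a cytosolic synthetase gene to the mitochondrial gene of the same amino acid, for 16 pairs in ageing, adult DH and aged DH, and bars are the SE from 5 rats per group. Filled points passed the adjusted exact permutation test, 3 in ageing, 9 in adult DH and 11 in aged DH, and every filled point lies to the right of 0.

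Other steps in the life of a tRNA were read from lists of genes. Over all genes tested, 12.7% were called in either direction in adult DH, 7.29% in aged DH and 5.99% in ageing. None of 21 genes tested for tRNA processing, CCA addition and export and none of 13 for mitochondrial tRNA maturation was called in adult DH, aged DH or ageing. None of 7 for delivery of tRNA to the ribosome was called either, except that Eef1b2, a nucleotide exchange factor subunit of elongation, was called higher in aged DH without aged EH replicate 4. Among 10 genes for editing, amidotransfer and selenocysteine charging, 3 were called lower in adult DH (4.99% of all genes) and none in aged DH or ageing. They were Qrsl1 and Gatb, subunits of the mitochondrial amidotransferase that makes glutaminyl-tRNA, and Aarsd1, which edits mischarged tRNA of alanine. Qrsl1 had normalized counts of 272 to 287 in the 5 adult EH rats and 205 to 256 in the 5 adult DH rats. It was lower in each DH rat, as were 4.08% of all genes (LFC = -0.27 ± 0.072, Padj = 0.0251). Gatb had an LFC of -0.21 ± 0.06 (Padj = 0.0334) and Aarsd1 of -0.16 ± 0.045 (Padj = 0.0313).

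Genes of the ATF4 amino acid response other than synthetases were counted in the same way. Of 27 tested, 17 were called higher in adult DH with a median LFC of 0.34 (7.67% of all genes, median -0.0073). In aged DH there were 15 with a median of 0.31 (4.05% of all genes, median -0.003), and in ageing 9 with a median of 0.070 (2.69% of all genes, median 0.00033). In each DH comparison 23 of the 27 had an LFC above 0 (47.8% of all genes in adult DH and 49% in aged DH), but in ageing only 16 (50.1%). None was called lower except Slc7a11, the cystine transporter gene, in ageing (LFC = -0.53 ± 0.10, Padj = 0.00932). Atf4 itself had normalized counts of 5246, 4960.3, 4897, 5433 and 5153 in adult EH rats and 7311, 7101, 7624, 7276 and 7499 in adult DH rats, far apart (LFC = 0.52 ± 0.033, Padj = 4.87e-07). In aged EH rats it had 6170.1, 6164, 7822, 6229 and 5967 and in aged DH rats 8588, 8423, 9076, 9314 and 8056, with replicate 4 the highest aged EH rat and below every DH rat (LFC = 0.43 ± 0.066, Padj = 0.00177). In ageing, Atf4 was higher in every aged EH rat than in every adult EH rat (LFC = 0.27 ± 0.062, Padj = 0.0215).

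The 5 with the lowest Padj in adult DH were Atf4, Atf5 (LFC = 0.63), the amino acid transporter gene Slc7a5 (0.34), Shmt2 (0.50), a mitochondrial enzyme of serine and folate metabolism, and Chac1 (0.55), which degrades glutathione. In aged DH they were Slc7a1 (0.48), a transporter of cationic amino acids, Atf4, Eif4ebp1 (0.73), a repressor of cap-dependent translation, Psph (0.49) and Shmt2 (0.44). Without aged EH replicate 4 there were 16 of 27 in aged DH, and in ageing 4 in place of 9, which were Asns, Atf4, Atf5 and Mthfd2. Asns, asparagine synthetase, had normalized counts of 1685, 1599.5, 1646, 1741 and 1608 in adult EH rats and 1834, 2089, 2353, 1895 and 1959 in aged EH rats, and Mthfd2, a mitochondrial folate enzyme, had 241, 221, 230.5, 197 and 217 and 336, 313, 434, 299.9 and 286. In Atf4, Asns and Mthfd2 alike, aged EH replicate 4, the third value, was the highest of the aged EH rats, as it was for the mean of the cytosolic synthetases. Whether the ATF4 genes and the synthetases moved for a common reason was not tested.

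Markers of other cell types moved with some comparisons, and their part in the results above was not tested. In adult DH 3 of 4 magnocellular markers were called higher, with sums of 205788 to 296829 in EH rats and 303152 to 402328 in DH rats, and 1 of 5 oligodendrocyte markers was called lower, with sums of 240500 to 352864 in EH rats and 227891 to 289491 in DH rats. In aged DH 2 of 4 magnocellular markers were called higher (sums of 267655 to 384544 in EH rats and 321742 to 533624 in DH rats), 2 of 4 markers of neighbouring cortex and amygdala were called lower (1625 to 3929.7 and 839 to 1557) and 1 of 3 blood markers was called lower (17565 to 45680.3 and 13555 to 26924, with no marker of that list called in adult DH). In ageing 2 of 4 magnocellular markers (214168 to 309331 in adult rats and 269365 to 384649 in aged rats) and 2 of 5 microglial markers (4527 to 4962 and 5172 to 6103) were called higher. Called lower in ageing were 3 of 5 oligodendrocyte markers (251140.0 to 367834 and 222409 to 272118), 2 of 5 astrocyte markers (109678 to 135144 and 103186 to 126179), 3 of 4 fibroblast and meningeal markers (17188 to 21547 and 6013 to 11274) and 1 of 4 endothelial and mural markers (7379 to 7852 and 6897 to 7289). Of the 2 general neuronal markers tested, none was called in any of the 3 comparisons. Over all genes tested, 7.67% were called higher and 4.99% lower in adult DH. The shares were 4.05% and 3.25% in aged DH, and 2.69% and 3.3% in ageing. No marker with a row in the tables was at 0, and Snap25, Pecam1 and Hba2 were not analysed here.

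An LFC of at least 0.25 in size was held by 6 of the called cytosolic genes in adult DH, by 6 in aged DH and by none in ageing. Over all genes the calls with that minimum were 897 in adult DH, 619 in aged DH and 637 in ageing, beside 1934, 1119 and 921 with no minimum. Without the variance trend of limma the cytosolic counts were 14 in adult DH, 7 in aged DH and 0 in ageing. Without the trend 1441, 671 and 516 of all genes were called in the same comparisons.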

How the data were processed

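SON punches from 20 rats were sequenced as stranded poly(A) libraries. According to the methods and the submitters' processing notes, the authors checked reads with FastQC, aligned them with STAR to the rat genome Rn6, counted them per gene with featureCounts and normalized them with DESeq2. The deposited values are a signal, read counts per gene divided by a size factor, in 3 tables of 10 libraries. All 30 columns of per-sample values matched a label, and 0 did not. The deposited columns of the authors' own comparisons (log2 fold changes, errors, test statistics and p-values) were not used. For adult DH, 100% of values came back as whole reads within 0.1 read, between 24268398 and 28491926 reads per library. Read totals of the aged libraries were not recovered here.

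Values were analysed as log2(value + 1) with limma 3.58.1 in R 4.3.3, with a variance trend, for genes with a mean of at least 10. An LFC on this scale understates the change of genes with low values. The p-values (two-sided) were adjusted by the Benjamini-Hochberg method across the genes of each fit, with a threshold of 0.05 and no minimum LFC. Each comparison was fitted within its own table, and the difference between the ages over all 20 rats. Pair ratios were compared by exact permutation over all arrangements of the rats. The code was tested on simulated data. Each library was taken as 1 rat.

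The members, the gene lists and the tests were chosen with earlier results of these data known. Values in every rat are given for members called in at least 2 of the 3 comparisons of groups, and otherwise for the 3 called members with the lowest Padj of each compartment and comparison. List genes were named from those called, at most 5 per list and comparison by Padj, and Asns, Mthfd2 and Eef1b2 were named after their values were seen. Alternatives were pseudocounts of 0.5 and 10, no filter, median-centred libraries, no variance trend, RNA integrity as a covariate (its values come from the study's supplement), a minimum LFC of 0.25, a replicate block, each rat left out and, in adult DH, edgeR 4.0.16 and DESeq2 1.42.0 on the recovered reads. Dropping the block from the same rats and leaving aged EH replicate 4 out of the gene lists were chosen after seeing the data.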

Additional observations from a re-analysis of the deposited data

Results flagged for a closer look

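Of 74 groups of 5 rats examined, 14 held a rat whose gap to the nearest other rat exceeded 0.71 of the range of its group, where chance gives about 1 in 20. In 12 of them the rat was aged EH replicate 4, always as the highest of its group, and these values share 1 library and partly the same genes.

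In the aged DH table the normalized counts of aged EH replicate 4 were 10797 for Aars (group mean 9913), 2224 for Cars (1893), 5627 for Eprs (5101), 4066 for Gars (3608), 2710.2 for Iars1 (2315), 7273 for Sars1 (6285), 3421 for Wars1 (3012) and 3170.4 for Yars1 (2884). In the ageing table they were 5629 for Eprs (group mean 5112) and 2711 for Iars1 (2319). Its mean over the 20 cytosolic genes, on the log2 scale and less the control mean, was 0.22 in the ageing table and 0.12 in the aged DH table. The remaining groups were those of Eprs in adult EH, where replicate 6 was highest, with 4858 in the ageing table (group mean 4606) and 4660.0 in the adult DH table (4419). The cause was not tested.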

How the results depend on the processing

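No value of a called gene reversed its direction, while members that were not called and lay near 0 did in some settings, such as Kars in adult DH (LFC of -0.032 with RNA integrity as a covariate). Of 311 values of called genes under other settings 261 stayed past the threshold and 50 did not, and of 310 with 1 rat left out 269 stayed and 41 did not. The cytosolic count in ageing, 3 genes, was 1 without the filter on low values, 0 without the variance trend, 5 with RNA integrity as a covariate and 0 with a minimum LFC of 0.25. In adult DH, 15 cytosolic genes became 6 with that minimum, and 1 mitochondrial gene became 2 without the variance trend. In aged DH, 12 cytosolic genes became 7 without the trend and 6 with the minimum. With 1 rat left out the cytosolic counts were 0 to 5 in ageing, 14 to 15 in adult DH and 9 to 15 in aged DH, and the mitochondrial count in adult DH was 1 to 2. The pairs called were 3 to 4 in ageing, 9 to 10 in adult DH and 7 to 12 in aged DH with 1 rat left out. With medians they were 0 in each comparison, beside 6, 11 and 11 at an unadjusted exact permutation p under 0.05. The adjusted test of medians could hardly pass, because many arrangements of the rats share a median. The causes of the other shifts were not tested.

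On the recovered reads of adult DH, edgeR and DESeq2 each called 15 cytosolic genes higher and 1 mitochondrial gene lower, and 1936 and 2243 genes in all, beside 1934 by limma. Over all genes, counts that moved by more than 1.5 times were 516 in ageing (from 921) and 671 in aged DH (from 1119) without the variance trend, 1005 in adult DH with RNA integrity as a covariate, and 897 in adult DH and 619 in aged DH with the minimum LFC. With 1 rat left out they were 599 in ageing without aged EH replicate 4, 594 in ageing without adult EH replicate 5, 679 in aged DH without aged EH replicate 5 and 678 in aged DH without aged DH replicate 5. With the replicate block they were 980 in adult DH and 635 in aged DH, and for the same rats with no block 1284 in adult DH. The difference between the ages had 5 genes called without aged EH replicate 6, and 1 gene called without the variance trend, for the rats of the block fitted with no block, and without adult EH replicate 5, adult DH replicate 1, aged EH replicate 4 or aged DH replicate 3, none of them a synthetase gene.

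The replicate numbers share only a number. Same-numbered rats had correlations of deviations between -0.083 and 0.16, and the rats that correlated best with their own number were 2 of 10 in ageing, 2 of 8 in adult DH and 2 of 8 in aged DH. With the replicate number as a block the cytosolic counts were 3 in ageing, 11 in adult DH (12 for the same rats with no block) and 11 in aged DH (13 with no block), the mitochondrial counts 0, 1 and 0, and the count for the difference between the ages 0. Over all genes the block gave 824, 980 and 635 calls, and the same rats with no block 921, 1284 and 825.

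With 5 rats per group, small differences were not detectable, most of all in the mitochondrial genes, whose values varied more between rats. Read totals were recovered for the adult libraries only. Nothing here separates a change in cell numbers from a change per cell.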
